A study of Mus musculus with 18 samples.

Results

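The naive state is the ground state of mouse embryonic stem cells (ESCs), and a set of nuclear factors holds it in place. Signals from LIF through STAT3, and Wnt signals that relieve repression by TCF factors, feed into this set, while FGF-ERK signals and other inputs close it down as cells move toward the formative state of the epiblast. The genes described here are 10 naive pluripotency genes, chosen by name: the nuclear receptor genes Esrrb, Nr5a2 and Nr0b1, the Krüppel-like factor genes Klf2, Klf4 and Klf5, Tfcp2l1, Tbx3, Zfp42 (which encodes the zinc finger protein REX1) and Tcl1. They are commonly grouped as naive transcription factors, but the Tcl1 protein is a co-activator of the kinase AKT, and the Nr0b1 protein (DAX1) is a co-repressor without the usual zinc finger DNA-binding domain. All 10 were present among the 12410 genes measured in both ESCs and epiblast-like cells (EpiLCs), out of 13104 genes in ESCs and 13717 in EpiLCs.

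RNA was measured in 12 libraries, 3 in each of 4 groups. The ESCs were a female mouse clone that carries fluorescent reporters of the germline genes Blimp1 and Stella, kept with LIF and inhibitors of MEK and GSK3, and the EpiLCs were derived from them with activin A and bFGF. In each cell type 3 libraries came from cells exposed to Δ9-THC, the psychoactive cannabinoid of cannabis, at 100 nM, and 3 from cells given the ethanol vehicle. The authors describe the exposure as continuous, so that exposed EpiLCs came from exposed ESCs and their comparison includes exposure at the earlier stage. The comparison asks whether exposure to Δ9-THC changes the transcripts of these cells, and every ESC and EpiLC library comes from this clone, so the values describe 1 cell line.

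Libraries held between 23427551 and 32096698 adjusted counts. Levels are given in CPM, counts scaled to a common library total, with TMM factors over all 12 libraries. Differences between exposures were tested within each cell type with the quasi-likelihood test of edgeR, scaled within that cell type, as a log2 fold change of THC minus vehicle, and a gene was called at a Benjamini-Hochberg adjusted p of at most 0.05 over all genes. The ESC and EpiLC counts were adjusted separately by the authors, so levels set across the cell types carry no test.

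Markers matched the labelled states. Formative and primed genes summed to 291 to 307 CPM in the vehicle ESC libraries (291, 292 and 307) and to 2319, 2422 and 2108 CPM in the vehicle EpiLC libraries. All 10 of these genes measured in both cell types were higher in EpiLCs, 7 of them by at least 4-fold with no overlap between the 6 ESC and 6 EpiLC libraries, while Fgf5 was measured in EpiLCs alone. Dnmt3b, a de novo DNA methyltransferase, was at 77.1 CPM in vehicle ESCs and 936 CPM in vehicle EpiLCs. Among core pluripotency genes, Pou5f1 was at 373 and 369 CPM in the vehicle groups, Sall4 at 333 and 162 CPM, Sox2 at 378 and 92.6 CPM and Lin28a at 97.7 and 484 CPM. Pou5f1 and Nanog have processed pseudogenes, and reads that mapped to several places were not counted.

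Markers of other cell types differed in level between lists. Of 8 primitive endoderm markers, 2 were measured in ESCs, with Lama1 the most abundant and sums of 66.6, 76.1 and 66.4 CPM in vehicle and 61.2, 52.8 and 61.2 CPM in THC libraries, while Gata6, Sox17, Sox7, Pdgfra and Foxa2 were in neither table. In EpiLCs 3 of the 8 were measured, Dab2 led, and the sums were 10.5, 10.8 and 10.7 CPM in vehicle and 13.7, 13.1 and 13.03 CPM in THC libraries. The sums did not overlap between exposures in either cell type, lower with THC in ESCs and higher in EpiLCs. Dab2 was not measured in ESCs, so the sums cover different genes in the 2 cell types. Single genes without overlap made up 33% of all genes in ESCs and 21.8% in EpiLCs. The part of these sums in the members' values was not tested. Of 8 trophectoderm markers, 5 were measured in both cell types, and their sums ran from 25.5 to 35.4 CPM in ESCs and from 84.8 to 122 CPM in EpiLCs, where the keratin gene Krt18 led. Cdx2, Elf5 and Hand1 were in neither table. Those measured among 6 mesoderm and primitive streak markers summed to at most 7.55 CPM in any library, those among 5 fibroblast markers to at most 15.4 CPM and those among 7 two-cell-like markers to at most 8.47 CPM. The two-cell-like sums in ESCs were 2.08, 2.74 and 2.16 CPM in vehicle and 3.45, 2.72 and 3.31 CPM in THC libraries, which overlapped. Of 5 neural markers 2 were measured in ESCs and 3 in EpiLCs. Those measured summed to between 35.5 and 96.8 CPM, with Nes the most abundant in every group. The neural sums in ESCs were 41.7, 47.1 and 45.1 CPM in vehicle and 40.6, 35.5 and 37.2 CPM in THC libraries, which did not overlap. None of these markers was called with THC in either cell type by edgeR.

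Every one of the 10 genes was lower in EpiLCs than in ESCs. In all 10 the highest EpiLC library lay below the lowest ESC library, and the vehicle means differed by between 8.24-fold for Klf2 and 126-fold for Tbx3. Of all 12410 genes, 344 (2.77%) were at least 4-fold lower in EpiLCs with no overlap. The genes were chosen as naive genes, so this direction was part of their choice. In these bulk libraries fewer naive cells and less RNA per cell cannot be told apart. By log2 ratio of the vehicle means, Tbx3, Klf4 and Tfcp2l1 ranked 2, 4 and 5 from the lowest among the 12410 genes, while Zfp42 and Klf2 ranked 122 and 123.

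**Figure D1:**
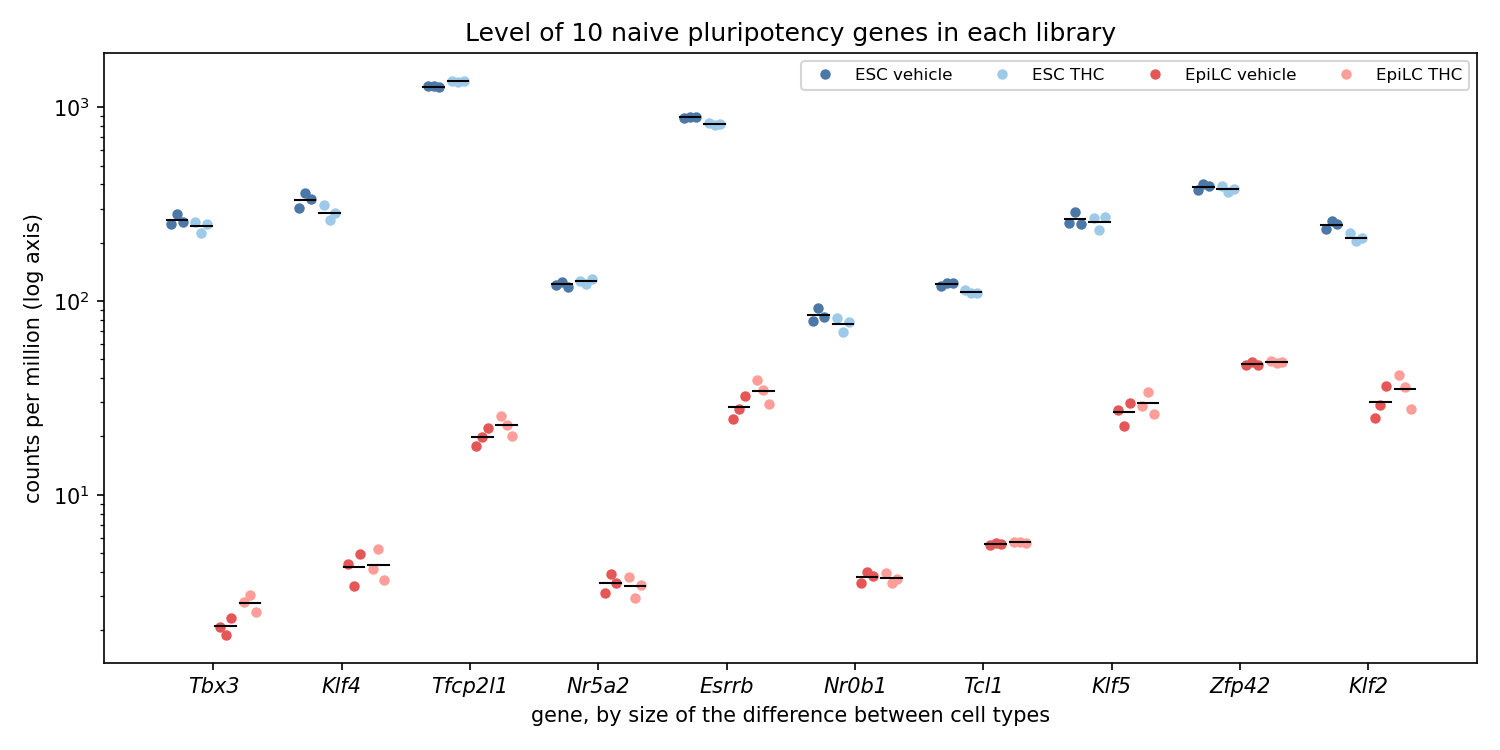
Level of each of the 10 genes in every library, in CPM on a log axis, with 3 points for each cell type and exposure and a bar at the group mean. Genes are ordered from the largest to the smallest difference between vehicle ESCs and vehicle EpiLCs, from 126-fold for Tbx3 to 8.24-fold for Klf2, and in every gene all EpiLC points lie below all ESC points.

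Levels of different genes were compared per kilobase (kb) of annotated exons. In vehicle ESCs Zfp42 was the most abundant, at 208 ± 7.34 CPM per kb (SD, n = 3). Esrrb followed at 147 ± 1.40 CPM per kb, above Tfcp2l1 at 136 ± 1.01 and Klf2 at 134 ± 6.30 CPM per kb, whose libraries overlapped each other. Klf4 stood at 109 ± 9.58 CPM per kb and Tcl1 at 66.6 ± 1.501 CPM per kb. Klf5 at 50.8 ± 4.04 and Nr0b1 at 46.7 ± 3.61 CPM per kb overlapped, and Tbx3 at 39.8 ± 2.57 and Nr5a2 at 20.7 ± 0.642 CPM per kb came last. Tbx3 and Nr0b1 changed places when the longest transcript replaced all exons. In vehicle EpiLCs Zfp42 at 25.1 ± 0.475 CPM per kb and Klf2 at 16.3 ± 3.15 CPM per kb led, and Nr5a2 at 0.595 ± 0.0664 and Tbx3 at 0.316 ± 0.0309 CPM per kb were the lowest. Among all genes of a table, Zfp42 was above 98.6% of genes per kb in vehicle ESCs and above 85.5% in vehicle EpiLCs, while Tbx3 was above 90.5% and 5.63%.

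Esrrb (ENSMUSG00000021255, chr12:86361117-86521628, plus strand; positions are of GRCm38 in GENCODE M21) encodes an orphan nuclear receptor that acts downstream of GSK3 inhibition and TCF repression. Its level was 880, 897 and 888 CPM in the vehicle ESC libraries and 828, 812 and 820 CPM in the THC ESC libraries. The THC libraries all lay below the vehicle libraries, and the log2 fold change was −0.10 ± 0.025 (SE), a difference of −6.67% (95% confidence interval −10.4% to −2.73%), with an edgeR adjusted p of 0.0600. In EpiLCs it stood at 24.6, 27.9 and 32.2 CPM in vehicle and at 39.0, 34.8 and 29.3 CPM in THC libraries. The exposures overlapped there, and the vehicle EpiLC mean was 3.18% of the vehicle ESC mean.

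Nr5a2 (ENSMUSG00000026398, chr1:136842571-136960448, minus strand), which encodes the receptor LRH-1, was at 122, 126 and 119 CPM in vehicle and 128, 123 and 130 CPM in THC ESC libraries. It was at 3.12, 3.91 and 3.49 CPM in vehicle and 3.77, 2.93 and 3.40 CPM in THC EpiLC libraries. The exposures overlapped in both cell types, and vehicle EpiLCs held 2.87% of the vehicle ESC level. Nr0b1 (ENSMUSG00000025056, chrX:86191764-86195947, plus strand) was at 79.2, 91.7 and 82.4 CPM in vehicle and 81.4, 69.5 and 78.2 CPM in THC ESC libraries. In EpiLCs its values were 3.50, 3.97 and 3.80 CPM in vehicle and 3.96, 3.52 and 3.67 CPM in THC libraries, again with overlap, and 4.45% of the vehicle ESC level was left.

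The Krüppel-like factors bind CACCC and GC-rich sites and overlap in function in ESCs. Klf2 (ENSMUSG00000055148, chr8:72319033-72321656, plus strand) was at 236, 259 and 250 CPM in vehicle ESCs and at 224, 203 and 212 CPM in THC ESCs. No THC library reached the vehicle libraries, and the log2 fold change of −0.21 ± 0.049 (SE; 95% confidence interval −0.33 to −0.089) had an edgeR adjusted p of 0.0556. DESeq2 gave −0.21 with an adjusted p of 0.0120 and called it, while the edgeR adjusted p was 0.698 with offsets for GC content and length and 0.0721 to 0.156 without 1 library. In EpiLCs Klf2 was at 24.9, 29.2 and 36.4 CPM in vehicle and at 41.4, 36.2 and 27.6 CPM in THC libraries, which overlapped.

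Klf4 (ENSMUSG00000003032, chr4:55527143-55532466, minus strand), a target of LIF and STAT3, was at 303, 361 and 336 CPM in vehicle and at 314, 261 and 284 CPM in THC ESC libraries. The log2 fold change was of the size of that of Klf2, −0.20 ± 0.086 (SE), but the exposures overlapped and the edgeR adjusted p was 0.180. Its EpiLC values were 4.41, 3.37 and 4.95 CPM in vehicle and 4.12, 5.22 and 3.64 CPM in THC libraries, so that 1.27% of the vehicle ESC level was left, 78.6-fold less. Klf5 (ENSMUSG00000005148, chr14:99298691-99315036, plus strand) was at 254, 288 and 250 CPM in vehicle and 268, 233 and 271 CPM in THC ESC libraries. Its EpiLC libraries were at 27.5, 22.7 and 29.8 CPM in vehicle and at 28.6, 34.0 and 26.1 CPM with THC. Klf5 overlapped between exposures in both cell types and kept 10.1% of the vehicle ESC level, against 12.1% for Klf2 and 1.27% for Klf4.

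Tfcp2l1 (ENSMUSG00000026380, chr1:118627945-118685168, plus strand), a grainyhead-like factor and STAT3 target, differed from most of the others in direction. It was at 1283, 1290 and 1271 CPM in vehicle and at 1363, 1356 and 1374 CPM in THC ESC libraries, with every THC library above every vehicle library. The log2 fold change was 0.11 ± 0.025 (SE), or 7.68% (95% confidence interval 3.29% to 12.3%), with an edgeR adjusted p of 0.0543. In EpiLCs it was at 17.8, 19.9 and 22.1 CPM in vehicle and at 25.4, 22.9 and 20.1 CPM in THC libraries, which overlapped, and vehicle EpiLCs held 1.56% of the vehicle ESC level.

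Tbx3 (ENSMUSG00000018604, chr5:119670669-119684724, plus strand), a T-box factor, was at 251, 283 and 256 CPM in vehicle and at 256, 225 and 251 CPM in THC ESC libraries, with overlap. Its EpiLC group means were the lowest of the 10 genes, with values of 2.08, 1.89 and 2.30 CPM in vehicle and 2.79, 3.05 and 2.49 CPM in THC libraries. The THC EpiLC libraries all lay above the vehicle libraries, with a log2 fold change of 0.41 ± 0.13 (SE; 95% confidence interval 0.096 to 0.73) and an edgeR adjusted p of 0.237. These values rest on 60, 60 and 52 counts in vehicle and 71, 77 and 74 counts in THC libraries, where counting error alone is 13.2% and 11.6% of the mean. The counts took no account of strand, and 1.7% of the exonic bases of Tbx3 are shared with the antisense gene Tbx3os1, while 1.4% of those of Tfcp2l1 are shared with Gm23497.

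Zfp42 (ENSMUSG00000051176, chr8:43295063-43306980, minus strand), a zinc finger gene used as a reporter of the naive state, was at 375, 403 and 393 CPM in vehicle and at 395, 367 and 377 CPM in THC ESC libraries. In EpiLCs it was at 46.9, 48.3 and 46.7 CPM in vehicle and at 49.2, 47.8 and 48.8 CPM with THC. Exposures overlapped in both cell types, and the 12.1% of the vehicle ESC level left in vehicle EpiLCs was close to that of Klf2. Tcl1 (ENSMUSG00000041359, chr12:105216750-105222793, minus strand) was at 120, 124 and 124 CPM in vehicle and at 114, 110 and 110 CPM in THC ESC libraries. No THC library reached the vehicle libraries in ESCs, and the log2 fold change was −0.13 ± 0.031 (SE), with an edgeR adjusted p of 0.0576. In EpiLCs Tcl1 was at 5.52, 5.61 and 5.57 CPM in vehicle and at 5.73, 5.70 and 5.66 CPM with THC. The EpiLC groups did not overlap, but the difference of 2.36% was smaller than the counting error of 8.05% on a mean of 154 counts in a vehicle library.

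No member was called with THC in ESCs by edgeR, where 906 of 13104 genes (6.91%) were called. The tests take the libraries of a cell type as independent, which the authors' adjustment of the counts may have changed. Standard errors and p-values may then be too small. This holds for every value of edgeR or DESeq2 given here, in ESCs, in EpiLCs and in the interaction. Those 906 calls became 0 or 1 without any 1 of the 6 ESC libraries, and 2 with offsets for GC content and length. With DESeq2, 1 member, Klf2, was called among 759 of 10563 genes with an adjusted p (7.19%). At an unadjusted p under 0.05, edgeR picked 4 of the 10 members (Klf2, Esrrb and Tcl1 lower, Tfcp2l1 higher), beside 3761 genes (28.7%). The exposures did not overlap in those 4 members, beside 4327 genes (33%), so the members' shares were near those of all genes. Over the 10 members, 8 log2 fold changes were negative and 2 positive, with a median of −0.098, against 6407 negative and 6697 positive and a median of 0.0041 over all genes. With the GC and length offsets 9 members were negative and 1 positive, with a median of −0.043, against 6556 negative and 6548 positive over all genes.

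In EpiLCs edgeR called 0 of 13717 genes (0%) and 0 members. DESeq2 called 87 of 11589 genes (0.751%) and 0 members, with no adjusted p for Tbx3. At an unadjusted edgeR p under 0.05 there was 1 member, Tbx3, beside 2069 genes (15.1%). The exposures did not overlap in 2 members, Tbx3 and Tcl1, beside 2993 genes (21.8%). Of the 10 log2 fold changes 8 were positive and 2 negative, with a median of 0.097. Over all genes 6953 were positive and 6764 negative, with a median of 0.0030. With the GC and length offsets 9 members were positive and 1 negative, with a median of 0.095, against 6307 positive and 7410 negative over all genes.

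Whether the THC effect differed between ESCs and EpiLCs was tested by the interaction term of a fit to 12 libraries. EdgeR called 4 of 12410 genes (0.0322%) and DESeq2 133 (1.07%), and 0 members were called by either. At an unadjusted edgeR p under 0.05 there were 3 members beside 1703 genes (13.7%). These were Tbx3, with an effect in EpiLCs minus ESCs of 0.53 ± 0.15 (SE) and an edgeR adjusted p of 0.148, Klf2 with 0.44 ± 0.20 and Esrrb with 0.40 ± 0.14. The effect was higher in EpiLCs for 9 of the 10 members, with Nr5a2 the exception, and for 6568 of the 12410 genes. With the GC and length offsets it was higher for 8 of the 10 members and for 5770 of the 12410 genes.

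**Figure D2:**
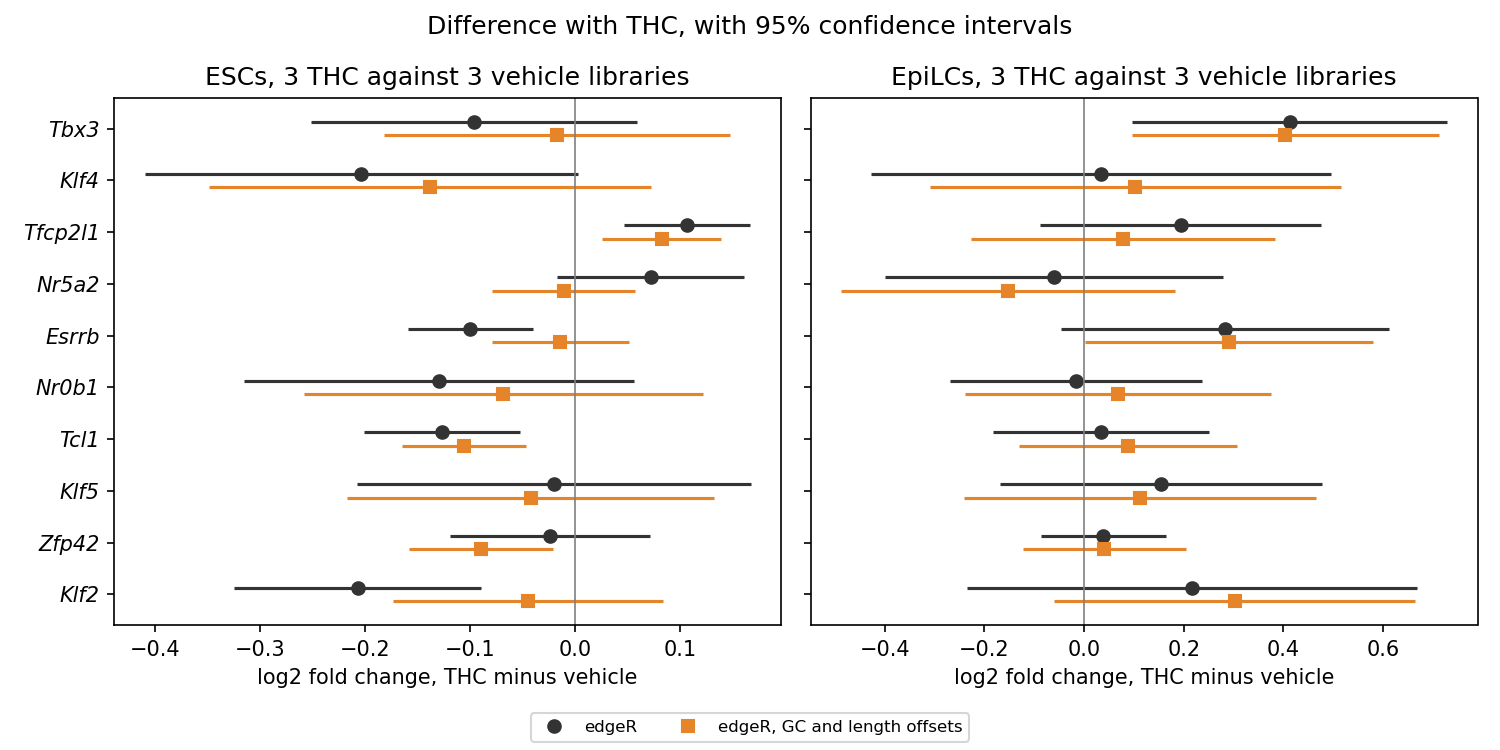
Log2 fold change of THC minus vehicle for each gene in ESCs and in EpiLCs, with 95% confidence intervals, from edgeR (circles) and from edgeR with offsets for GC content and length (squares). In ESCs the edgeR values run from −0.21 for Klf2 to 0.11 for Tfcp2l1, and in EpiLCs from −0.060 for Nr5a2 to 0.41 for Tbx3.

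Base composition moved with exposure in ESCs. Across genes, a library's deviation from the ESC mean had a Spearman correlation with GC content of 0.320, 0.242 and 0.508 in the vehicle libraries and of −0.304, −0.244 and −0.491 in the THC libraries. In EpiLCs it was 0.037, 0 and 0.412 in vehicle and −0.06, 0.001 and −0.411 in THC libraries, so that replicate 3 alone stood apart. Genes are not independent replicates, and these correlations are descriptions. Over 13083 ESC genes the log2 fold change had a rank correlation of −0.536 with GC content, and over the 10 members, which share the same 6 libraries, it was −0.855. Klf2 has the highest GC content of the members, 61.6%, and the lowest ESC log2 fold change, −0.21, while the genes in the same of 10 GC bins had a median of −0.14. In ESCs 8 members lay within the quartiles of their own GC bin, and Klf4 and Tcl1 lay below.

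**Figure D3:**
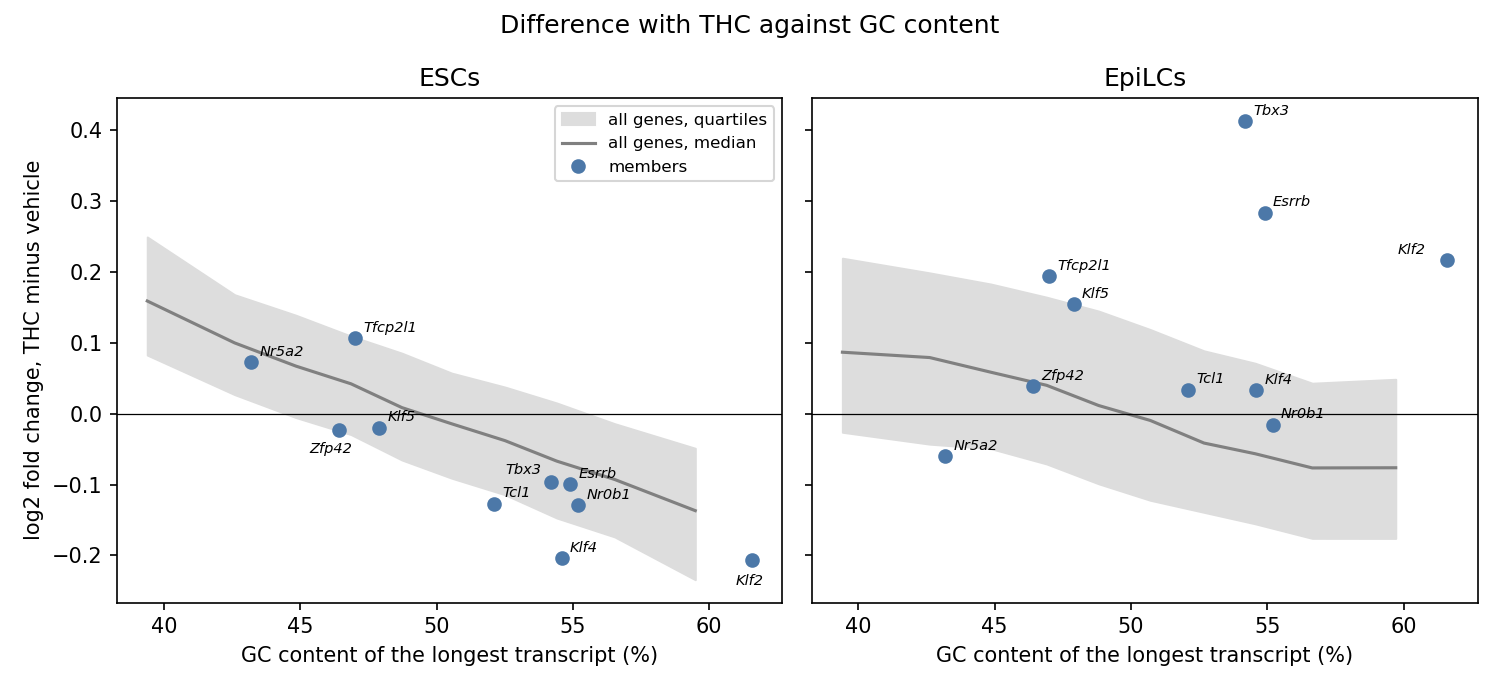
Log2 fold change of THC minus vehicle against the GC content of the longest transcript, for the 10 members (points) and for all genes in 10 bins of GC content (line, median; band, quartiles), in ESCs and EpiLCs. The band is drawn at each bin's median GC content, so Klf2 lies to the right of it; in ESCs 8 members are within the quartiles of their bin, and in EpiLCs 4 are within, 5 above and 1 below.

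With offsets that removed each library's trend with GC content and length, 2 ESC genes were called and no member. The ESC log2 fold change of Klf2 became −0.045 (95% confidence interval −0.17 to 0.084) and that of Esrrb −0.014. That of Tcl1 was −0.11 and that of Tfcp2l1 0.083, and Nr5a2 turned from 0.072 to −0.011. Klf4 was at −0.14, Nr0b1 at −0.068 and Tbx3 at −0.017. Others grew in size, Zfp42 from −0.023 to −0.090 (95% confidence interval −0.16 to −0.021; edgeR adjusted p = 0.186 with the offsets) and Klf5 from −0.020 to −0.042. In EpiLCs the relation of the members was of the other sign, with a rank correlation of 0.297 over 10 members against −0.299 over 13696 genes. With the offsets in EpiLCs Tbx3 was at 0.40 and Esrrb at 0.29, Klf2 moved from 0.22 to 0.30, Klf4 from 0.034 to 0.10, Tcl1 from 0.034 to 0.088 and Nr0b1 from −0.016 to 0.069. Tfcp2l1 moved from 0.19 to 0.077, Klf5 from 0.15 to 0.11 and Nr5a2 from −0.060 to −0.15, and Zfp42 was at 0.041 against 0.039.

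Features that can move with poly(A) selection or RNA quality also differed between exposures in ESCs. The 5 listed were a transcript known by its identifier, ENSMUSG00000119584, the mitochondrial mt-Tp, mt-Rnr1 and mt-Rnr2, and Lars2, a nuclear protein-coding gene. ENSMUSG00000119584 took between 0.477% and 0.639% of the counts of vehicle ESC libraries and between 2.46% and 3.19% of those of THC ESC libraries. Of the 5, edgeR called 4 higher with THC in ESCs, all but mt-Rnr2. ENSMUSG00000119584 has no GC content in the annotation used, so the offsets did not act on it, and it is 1 of the 2 ESC genes called in that fit. The other 4 were not called with the offsets. There the log2 fold change of Lars2 went from 1.47 to 1.51 and that of mt-Tp from 1.77 to 1.44. That of mt-Rnr1 went from 0.47 to 0.19, and that of mt-Rnr2 turned from 0.16 to −0.11. In EpiLCs the share of ENSMUSG00000119584 was 0.779%, 2.19% and 3.88% in vehicle and 3.97%, 1.80% and 0.418% in THC libraries, and 0 of the 5 were called. The offsets remove any trend with GC content or length, whatever its source. In ESCs an effect of THC that follows GC content and a technical trend therefore cannot be told apart. The part of these features in the members' values was not tested.

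Other genes known as naive markers were set beside the members. Of 12 listed, 12 were measured in ESCs, 6 with positive and 6 with negative log2 fold changes and 0 called by edgeR, with a median of 0.0062, and with the GC and length offsets 3 were positive and 9 negative, with a median of −0.048. Nanog was at 1017 CPM in both vehicle and THC ESCs and at 188 and 205 CPM in the EpiLC groups. Across cell types 9 of the 11 measured in both were lower in vehicle EpiLCs. The other 2 were higher there, Mael by 6.77-fold (5.46 CPM in vehicle ESCs and 36.9 CPM in vehicle EpiLCs) and Gbx2 by 1.2-fold. Tdh, threonine dehydrogenase, was 29.5-fold lower, Nanog 5.42-fold, Fgf4 1.76-fold and Dppa5a 1.49-fold, beside a median log2 ratio of −1.26 for this list and −4.73 for the 10 members.

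Genes of the formative and primed list included 3 called in ESCs by edgeR. Pou3f1, a POU factor of the formative state, was lower with THC at 3.84 and 1.95 CPM in vehicle and THC (log2 fold change −0.96, edgeR adjusted p = 0.0265), and Sox3 was lower by −0.40 (edgeR adjusted p = 0.0498). Zic5 was higher by 0.15 (edgeR adjusted p = 0.0461). With the GC and length offsets 0 of this list were called, with log2 fold changes of −0.74 for Pou3f1 (edgeR adjusted p = 0.0822), 0.15 for Zic5 (edgeR adjusted p = 0.101) and −0.14 for Sox3.

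Inputs to the naive factors were examined as lists. Of 8 genes of LIF-STAT3 signaling, 0 were called with THC in either cell type by edgeR, and all 8 were lower in vehicle EpiLCs, 4 of them by at least 4-fold with no overlap. The receptor subunit Il6st was at 156 CPM in vehicle ESCs and 26.8 CPM in vehicle EpiLCs, and Stat3 itself at 103 and 15.7 CPM. The kinase Jak1 was 2.37-fold lower and the phosphatase Ptpn11 1.25-fold lower. Of 9 Wnt genes, 0 were called in either cell type and 7 were lower in vehicle EpiLCs. Ctnnb1, which encodes β-catenin, was at 458 and 327 CPM in the vehicle groups.

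Of 11 FGF-ERK genes, 1 was called in ESCs. This was Map2k2, which encodes the kinase MEK2, at 78.05 CPM in vehicle and 66.6 CPM in THC ESCs (log2 fold change −0.21, edgeR adjusted p = 0.0399), and it was not called with the GC and length offsets (log2 fold change −0.045). Of 11 exit factors 0 were called in either cell type, 7 were lower and 4 higher in vehicle EpiLCs, and none differed 4-fold. Etv5 was at 452 CPM and Jarid2 at 314 CPM in vehicle ESCs.

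Relatives of the members by protein family were less uniform. Of 33 listed, 18 were measured in both cell types, 12 lower and 6 higher in vehicle EpiLCs, with a median log2 ratio of −0.10. Among those with the highest levels, Klf9 was at 181 and 170 CPM in the vehicle groups, Klf10 at 143 and 111 CPM and Yy1, a relative of Zfp42, at 126 and 117 CPM. Klf15 was the relative called in ESCs, at 28.0 CPM in vehicle and 23.7 CPM with THC (log2 fold change −0.22, edgeR adjusted p = 0.0301), and not called with the offsets (log2 fold change −0.16, edgeR adjusted p = 0.104).

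The genes with the pattern most like the median member, by root mean square distance of centred log2 CPM over 12 libraries, were Cobl (0.0923), Nid1 (0.0945), Bcl3 (0.153), Ngfr (0.175) and Myof (0.177). They were between 20.7-fold and 27.2-fold lower in vehicle EpiLCs than in vehicle ESCs. Their log2 fold changes with THC in ESCs ran from −0.18 to −0.027. In EpiLCs they were 0.28 for Cobl and 0.18 for Nid1, but −0.20 for Bcl3, −0.20 for Ngfr and −0.31 for Myof. Among members Esrrb had the smallest distance to that median, 0.120, and Tbx3 the largest, 1.06.

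RefSeq promoter windows (build GRCm38.p6, 250 bases before the start) were given for 8 members in 10 windows, with Klf5 and Tbx3 not among them. Motifs were searched on both strands as exact letters. The octamer ATGCAAAT was in 1.60% of all 32851 windows and, among members, in Zfp42. CCACACCC, a KLF site, was in 3.20% of all windows and again in Zfp42. GGGCGG, a GC box, was in 32.7% of all windows and in those of Klf4, Zfp42, Klf2 and Tcl1, and TCAAAG, a TCF site, was in 13.8% and in that of Nr0b1. TCAAGGTCA, a nuclear receptor site, was in 0.387% and TTCCNGGAA, a STAT site, in 0.913% of all windows and in none of the members'. The Klf4 and Klf2 windows held 32 and 29 CpG dinucleotides, more than 95.4% and 93.2% of all windows, and a Nr5a2 window held 2.

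The window of Zfp42 is shown because it holds both the octamer (ATTTGCAT on this strand) and the KLF site, in capitals, and lies at chr8:43307010-43307259 on the minus strand, upstream of the RefSeq start. The 30 bases of the Nr0b1 window around its TCF site (in capitals, on the other strand) lie at chrX:86191624-86191653 on the plus strand, and those of Klf2 around a GC box (in capitals) at chr8:72318836-72318865 on the plus strand.
Zfp42: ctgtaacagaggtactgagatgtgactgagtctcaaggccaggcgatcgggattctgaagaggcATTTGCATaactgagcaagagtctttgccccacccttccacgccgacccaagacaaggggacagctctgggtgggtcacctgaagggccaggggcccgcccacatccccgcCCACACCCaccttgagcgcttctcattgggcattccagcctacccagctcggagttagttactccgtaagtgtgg
Nr0b1: gagtgtttgcccCTTTGAgctttcgaggtc
Klf2: agggacggtcggGGGCGGggcccggccgcg
These matches describe letters in the windows, and no binding was measured.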

How the data were processed

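RNA from mouse ESCs and EpiLCs was measured in 12 libraries, and PGCLC libraries were not analysed here. The authors aligned reads with STAR, kept unique reads, counted them per gene with HTSeq without strand and removed low genes. The deposited counts are whole numbers after ComBat-seq adjustment by the authors, separately for each cell type, with batches not given in the sources used here. The genome is called mm10 and also GRCm39, which are different builds, and the sources used here do not say which library kit (KAPA or ABClonal) made which library. All 12 columns were matched to libraries by name, and 0 were left over. The labels call the replicates biological. An adjustment that removes differences between batches can leave libraries less independent than the fits assume, and SEs and p-values may then be too small, which was not tested.

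Counts were fitted with edgeR 4.0.16 in R 4.3.3 (TMM, genes with a total above 10 counts, quasi-likelihood test, Benjamini-Hochberg adjustment over all genes, threshold 0.05). The standard error is that implied by the p-value. The interaction used a model of 4 groups. The fits were tested on simulated counts. DESeq2 1.42.0, RLE, other filters, the replicate number as a block, offsets for GC content and length (splines with 5 degrees of freedom), a fit of all 12 libraries and fits without each library were alternatives. At these depths counting error limits genes with few counts. Gene positions, lengths and GC content came from GENCODE M21 on GRCm38, and the deposited genome may differ, so they describe genes only. Tables and figures used Python 3.11.15, pandas 2.3.3 and matplotlib 3.10.9.

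All members are named. From each list the text names genes called in a fit and otherwise at most 4 with the highest mean CPM. It also names the naive markers that were higher in EpiLCs and some listed genes that were not measured in ESCs or in either cell type. The 5 genes most like the members by distance are named as well. The members and lists were chosen with earlier results of these data known.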

Additional observations from a re-analysis of the deposited data

Results flagged for a closer look

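Tcl1 was flagged because every THC library lay below every vehicle library in ESCs and above every vehicle library in EpiLCs. Each cell type taken alone, the exposures did not overlap in 33% of all genes in ESCs and 21.8% in EpiLCs. The share of genes with both patterns is not given. The effect in EpiLCs minus that in ESCs was 0.18 ± 0.089 (SE) on the log2 scale, and the test of this difference by edgeR gave an adjusted p of 0.416, with 0.362 to 0.999 over the alternatives. In EpiLCs the difference was smaller than the counting error.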

How the results depend on the processing

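The count of members called stayed at 0 in both cell types and in the interaction under every alternative except DESeq2 in ESCs, which called 1 (Klf2, adjusted p 0.0120 with DESeq2, with 0.0120 to 0.970 over the alternatives). Genes called in ESCs fell from 906 to 5 with the replicate block, 2 with GC and length offsets, 3 with both and 31 in a fit of all 12 libraries, and to between 0 and 1 without each library. In EpiLCs 87 genes were called with DESeq2 and 411 in the fit of all 12 libraries, against 0. The interaction gave 133 genes with DESeq2 and 0 with the block, with the offsets, with both and without any library, against 4. Same-numbered vehicle and THC libraries deviated in opposite directions across genes (r from −0.987 to −0.977 in 6 pairs), and no library correlated best with its own number. Opposite deviations of this size tie same-numbered libraries to each other, and the main fits take no account of this. The block is given as an alternative, and whether the authors' adjustment gave these opposite deviations was not tested. Members lower with THC in ESCs numbered 9 with the offsets, 9 with the block and offsets and 6 to 8 without a library, against 8. Members lower with THC in EpiLCs numbered 1 with the offsets, 1 with the block and offsets and 1 to 2 without a library, against 2. Log2 fold changes that turned sign were Nr5a2 in ESCs (−0.011 with the offsets and with block and offsets), Nr0b1 in EpiLCs (0.069 and 0.071) and the interaction of Tfcp2l1 (−0.0015 and −0.0023). Without 1 library the ranges crossed 0 for Klf5 (−0.062 to 0.049) and Zfp42 (−0.051 to 0.0018) in ESCs and for Klf4 (−0.13 to 0.16), Nr0b1 (−0.074 to 0.030) and Nr5a2 (−0.16 to 0.031) in EpiLCs. Others kept their sign but moved by over 1.5 times, Tbx3 (−0.13 to −0.040) and Nr0b1 (−0.18 to −0.063) in ESCs and Esrrb (0.17 to 0.39), Klf2 (0.069 to 0.38), Klf5 (0.031 to 0.25), Tfcp2l1 (0.099 to 0.28), Zfp42 (0.019 to 0.056) and Tcl1 (0.018 to 0.041) in EpiLCs. The cause was not tested. All 10 members were at least 4-fold lower in EpiLCs under every scaling, in THC libraries and without each vehicle library.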
